A study of Mus musculus with 6 samples.

Results

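The alpha-globin locus of the mouse was followed through erythroid differentiation of MEL cells, a mouse erythroleukemia line that is induced to mature by DMSO. 10 genes were listed for the locus, its neighbours and the handling of alpha chains, out of 23896 named genes in the counts. Of the 10, 9 had a transcript among the counts, and the 10th is not analysed here. For a gene with several transcripts, the one with the highest mean count stood for the gene. The 9 genes are the adult alpha-globin gene Hba-a1, the embryonic zeta-globin gene Hba-x, the theta-globin genes Hbq1a and Hbq1b, and Nprl3, Mpg, Rhbdf1, Snrnp25 and Polr3k. All 9 passed the filter on low counts, and the lowest count of any of them in any library was 15, for Hbq1a at day 0.

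mRNA was sequenced from MEL cells before DMSO (day 0) and after 2 and 4 days in 2% DMSO. Each day had 2 libraries, 6 in all, which the authors describe as biological replicates. All cells were of 1 transformed line grown in suspension, so each day is a culture of the same line and not a separate animal. The day 2 and day 4 comparisons with day 0 share the day 0 libraries. In bulk RNA, a change in the share of cells that express a gene and a change in its RNA per cell cannot be told apart.

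Alpha-like and beta-like globin chains pair to form hemoglobin, and the alpha-like genes lie in a cluster in the order in which they are used in development, with zeta-globin before the adult copies. The main enhancers of the cluster lie upstream, within introns of the neighbouring gene Nprl3, which is itself expressed in many cell types. Mature red cells need large amounts of adult alpha-globin, while zeta-globin belongs to primitive, embryonic red cells.

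On the GRCm38 build, Snrnp25 (transcript NM_030093) spans chr11:32205415-32208996 on the plus strand. Rhbdf1 (NM_010117) follows at chr11:32209585-32222331 on the minus strand. Mpg (NM_010822) spans chr11:32226505-32232702 on the plus strand, and Nprl3 (NR_104306) spans chr11:32231963-32267707 on the minus strand. The globin genes come next, all on the plus strand. These are Hba-x (NM_010405) at chr11:32276600-32278116, Hba-a1 (NM_008218) at chr11:32283672-32284486, Hbq1b (NM_001033981) at chr11:32286964-32287912, the second adult copy Hba-a2 at chr11:32296492-32297310 and Hbq1a (NM_175000) at chr11:32300069-32300873. Polr3k (NM_025901) does not lie at this locus in the mouse and spans chr2:181864360-181870830. It was kept in the list and serves here as a gene outside the locus.

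The sequences just upstream of 4 genes are shown, those of Hba-a1 and Hba-x because they had the largest changes of the 9 genes, and those of Nprl3 and Mpg as flanking genes with smaller changes. Each run is the 250 bases before the RefSeq gene start (GRCm38.p6), read 5′ to 3′ on the gene's strand. They lie at chr11:32283422-32283671 (Hba-a1, plus), chr11:32276350-32276599 (Hba-x, plus), chr11:32267708-32267957 (Nprl3, minus) and chr11:32226255-32226504 (Mpg, plus). Capitals mark matches, on either strand, to 5 motifs. These are TGATAA and its variant AGATAA, to which GATA factors bind, CACCC, which KLF factors bind, CCAAT, bound by NF-Y, and the TATA box core TATAA.
Hba-a1: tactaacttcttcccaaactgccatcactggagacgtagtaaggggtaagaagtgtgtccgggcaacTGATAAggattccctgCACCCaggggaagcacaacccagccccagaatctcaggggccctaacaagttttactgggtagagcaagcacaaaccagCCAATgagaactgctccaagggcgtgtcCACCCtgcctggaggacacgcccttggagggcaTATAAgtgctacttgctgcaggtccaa
Hba-x: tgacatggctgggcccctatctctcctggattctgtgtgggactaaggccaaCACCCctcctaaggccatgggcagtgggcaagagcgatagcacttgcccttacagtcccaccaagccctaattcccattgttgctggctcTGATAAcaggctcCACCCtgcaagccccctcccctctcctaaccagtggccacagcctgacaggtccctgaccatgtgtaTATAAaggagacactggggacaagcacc
Nprl3: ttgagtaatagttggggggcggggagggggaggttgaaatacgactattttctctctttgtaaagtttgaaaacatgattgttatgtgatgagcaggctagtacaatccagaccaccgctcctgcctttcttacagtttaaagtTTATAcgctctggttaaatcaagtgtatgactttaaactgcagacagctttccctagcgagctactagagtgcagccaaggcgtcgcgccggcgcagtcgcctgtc
Mpg: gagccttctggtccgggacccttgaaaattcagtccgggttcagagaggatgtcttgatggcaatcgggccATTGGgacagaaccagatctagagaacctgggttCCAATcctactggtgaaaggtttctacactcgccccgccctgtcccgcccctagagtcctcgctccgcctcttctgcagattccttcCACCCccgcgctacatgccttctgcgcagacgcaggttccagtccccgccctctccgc

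A promoter sequence was found for 8 of the 10 listed genes. TGATAA was present upstream of Hba-a1, with its first base 183 bases before the start, and upstream of Hba-x, at 108 bases. It was absent from the same window of the other 6, and 7.94% of 32851 mouse promoter windows of this length hold it. Both genes also had 2 CACCC matches and a TATAA match at 27 and 28 bases before the start. CACCC was found in 52% and TATAA in 22.8% of all windows. CCAAT, found in 33.8% of all windows, was present upstream of Hba-a1 at 88 bases and was absent upstream of Hba-x. The theta-globin windows of Hbq1a and Hbq1b were identical at 239 of 250 bases and shared a CCAAT match at 149 bases. Nprl3 had a single match, TATAA on the opposite strand, and Mpg had 1 CACCC and 2 CCAAT matches. AGATAA, present in 9.99% of windows, occurred among these genes only upstream of Polr3k, on the opposite strand. The Hba-a1 and Hba-x windows held 4 and 1 CpG sites, against 10 for Hbq1b, 7 for Hbq1a, 11 for Nprl3, 14 each for Mpg and Polr3k, 19 for Snrnp25 and a median of 6 over all windows.

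The libraries held between 35294930 and 53899476 counts on transcripts, and 12381 genes with 1 transcript each were tested. A gene was called when its adjusted p was below 0.05 in edgeR's quasi-likelihood test, fitted over all 6 libraries. Erythroid identity was checked on single marker genes, given as mean CPM (counts scaled to library size) over the 2 libraries of a day. Alas2, the first enzyme of heme synthesis in red cells, had 76.4 before DMSO, 303 after 2 days and 1417 after 4 days. Slc4a1, the anion exchanger of the red cell membrane, went from 0.231 to 5.51 and 40.4. Tfrc, the transferrin receptor, was at 250.2, 254.8 and 582, and Epor, the erythropoietin receptor, at 164, 228 and 414. All of these were called higher at day 4 than at day 0, and the transcription factor gene Klf1, at 251, 169 and 172, was called lower. The summed levels of the marker lists for most other cell types were low. The 5 mast cell and basophil markers summed to 6.72 and 7.29 CPM before DMSO and to 0.0277 and 0.0221 CPM after 4 days. The 6 macrophage markers summed to 6.32 and 6.15 CPM before and 2.44 and 2.17 CPM after, with C1qa at 0 throughout. The 6 lymphocyte markers stayed at or below 1.38 CPM, with Ms4a1 at 0, and the 4 fibroblast markers at or below 3.24 CPM, with Col3a1 at 0. The 5 megakaryocyte markers summed to 271 and 277 CPM before and 545 and 620 CPM after. Itga2b made up most of this, with means of 218 and 569 CPM, while Pf4 fell from a mean of 50.02 to 9.56 CPM. The part of these cells or markers in the results below was not tested.

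Between day 0 and day 2, 6 of the 9 genes rose and none fell, beside 31.0% of all tested genes called higher and 31.5% called lower. The 6 were the 4 globin genes, Rhbdf1 and Nprl3. Between day 2 and day 4, 6 genes again rose and none fell, beside 14.0% called higher and 16.2% called lower among all genes. Here Snrnp25 took the place of Nprl3. Over the whole course, from day 0 to day 4, 6 rose and 1, Mpg, fell, beside 35.5% called higher and 36.4% called lower among all genes. Over the 9 genes, log2 fold changes had a median of 1.85 for the first step, 0.96 for the second and 2.81 for both together, against medians between −0.017 and 0.0093 over all tested genes. Scaling the libraries by total counts in place of TMM factors moved the median of all genes by about 0.2 in the first step, to 0.21, and changed the split of all calls from 3841 higher and 3902 lower to 5001 and 2881. For the second step the split changed from 1739 and 2010 to 1228 and 2532. The directions of the 4 globin genes and Rhbdf1 were the same under both scalings.

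**Figure D1:**
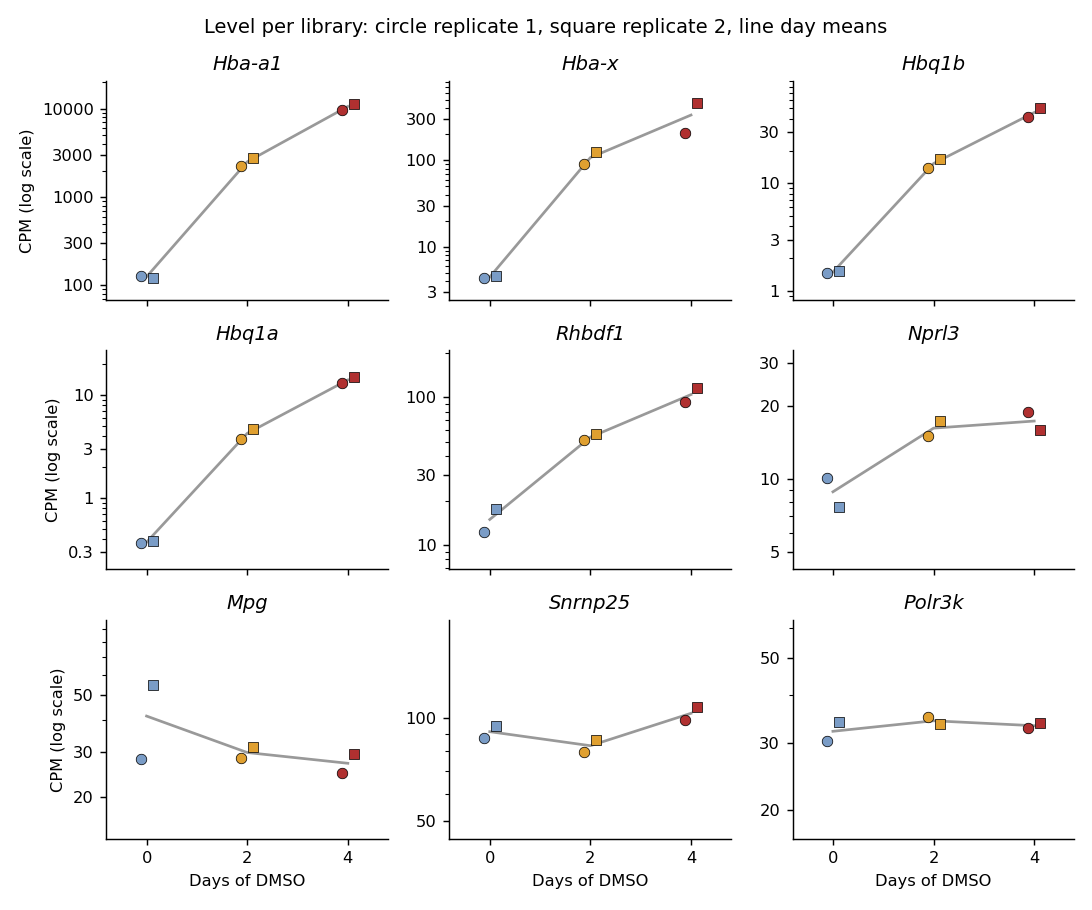
CPM (log scale) of each of the 9 genes against days of DMSO, with 1 point per library (circle replicate 1, square replicate 2) and a line through the day means. The 4 globin genes and Rhbdf1 rose at both steps and Nprl3 rose by day 2. Mpg, Snrnp25 and Polr3k stayed within a narrow range apart from 1 high day 0 library of Mpg.

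Hba-a1, which encodes the adult alpha chain, had 128 and 123 CPM at day 0, 2256 and 2768 CPM at day 2, and 9794 and 11461 CPM at day 4. The 3 days did not overlap. For this gene and those below, the share of all genes without overlap was not computed. The libraries of day 0 lay close together, while those of day 2 were 1.23-fold apart, a gap that 231 of 8407 genes with a mean of at least 10 CPM reached. Its log2 fold change was 4.33 (SE 0.19, adjusted p = 8.41e-08, edgeR) in the first step and 2.08 (SE 0.17, adjusted p = 7.85e-05) in the second. Over 4 days the change was 6.41 (SE 0.20, adjusted p = 6.88e-09), or 84.8-fold, and ranked 38th from the top of 12381 genes. As a share of all counts on transcripts, Hba-a1 was 0.0120% and 0.0113% at day 0 and 1.00% and 1.14% at day 4. The second adult copy, Hba-a2, had counts within 27 reads of those of Hba-a1 in every library, and 91.0% of the 31-base words of its transcript occur in Hba-a1. The values of Hba-a1 therefore stand for both copies, which these counts do not separate.

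Hba-x, the embryonic zeta-globin gene, had 4.34 and 4.57 CPM at day 0, 92.0 and 124 CPM at day 2, and 209 and 462 CPM at day 4. The days did not overlap, but the day 4 libraries were 2.20-fold apart. The first step was 4.60 on the log2 scale (SE 0.34, adjusted p = 1.40e-06, edgeR) and the second 1.64 (SE 0.28, adjusted p = 0.00205), giving 6.23 (SE 0.36, adjusted p = 1.19e-07) over the whole course, or 75.2-fold. Without day 4 replicate 2 the second step was 0.95 and the whole change 5.55 on the log2 scale, and without day 2 replicate 1 the second step was 1.44 with an adjusted p of 0.0539 in edgeR. No 31-base word of the Hba-x transcript was shared with another transcript, the adult copies included.

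The libraries of Hba-x were also far apart at day 2, where they differed 1.35-fold and 26 of 8407 genes with a mean of at least 10 CPM differed by at least as much. Of 8326 genes with a mean of at least 10 CPM at day 4, 9 differed between the day 4 libraries by at least as much, Hba-x included. The other 8, named after their values were seen, were Avil, Trib3 and Atf5, which were lower in replicate 2, and Nptxr and the noncoding genes Rn4.5s, Rnu12, Snord83b and Mir6236, which were higher. For Hba-a1 the same ratio was 1.17.

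Hbq1b and Hbq1a encode theta-globin, an alpha-like chain with no established part in hemoglobin. Hbq1b had 1.47 and 1.51 CPM at day 0, 13.9 and 16.8 CPM at day 2 and 41.6 and 50.1 CPM at day 4. Its log2 fold change was 3.36 in the first step (SE 0.17, adjusted p = 1.68e-07, edgeR), 1.58 in the second (SE 0.14, adjusted p = 0.000105) and 4.94 over both (SE 0.18, adjusted p = 8.30e-09). Hbq1a had 0.368 and 0.383 CPM at day 0, 3.78 and 4.76 CPM at day 2 and 13.1 and 15.2 CPM at day 4. Its change was 3.50 in the first step (SE 0.24, adjusted p = 8.36e-07, edgeR), 1.72 in the second (SE 0.17, adjusted p = 0.000146) and 5.22 over both (SE 0.23, adjusted p = 2.06e-08). Both rose at each step with no overlap between days, from counts of 15 to 75 at day 0. The transcripts share 258 of their 31-base words, which is 44.9% of Hbq1a's and 48.5% of Hbq1b's, so reads may have been exchanged between them and their separate levels are uncertain.

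Rhbdf1 encodes iRhom1, an inactive rhomboid protein that helps carry the protease ADAM17 to the cell surface. It had 12.3 and 17.5 CPM at day 0, 51.2 and 56.3 CPM at day 2 and 93.3 and 115 CPM at day 4, with no overlap between days. Its log2 fold change was 1.85 in the first step (SE 0.17, adjusted p = 5.03e-06, edgeR), 0.96 in the second (SE 0.16, adjusted p = 0.00165) and 2.81 over both (SE 0.17, adjusted p = 1.63e-07), or 6.99-fold. It was the only gene outside the globins among the 9 that rose at both steps, and its start lies at −61.3 kb from that of Hba-a1, beyond Nprl3 and Mpg.

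Nprl3 encodes a subunit of GATOR1, the complex that holds mTORC1 inactive when amino acids are scarce. It had 10.1 and 7.62 CPM at day 0, 14.9 and 17.4 CPM at day 2 and 18.8 and 15.8 CPM at day 4. Both later days lay above day 0, and days 2 and 4 overlapped. The first step was 0.88 on the log2 scale (SE 0.17, adjusted p = 0.000846, edgeR), and the second 0.095 (SE 0.16, adjusted p = 0.687), with 0.97 over both (SE 0.17, adjusted p = 0.000288), or 1.96-fold. The counts of its 4 transcripts in the files were nearly the same, from 3338 to 3657 in all 6 libraries together, and the transcript with the most, NR_104306, is a noncoding one.

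Mpg encodes the DNA glycosylase that removes alkylated purines in the first step of base excision repair. It had 28.3 and 54.5 CPM at day 0, 28.4 and 31.3 CPM at day 2 and 24.8 and 29.4 CPM at day 4, so that each pair of days overlapped. The fall from day 0 to day 4 of 0.61 on the log2 scale (log2 fold change −0.61, SE 0.24, adjusted p = 0.0367, edgeR) rested on day 0 replicate 2. Without that library it was −0.071 with an adjusted p of 0.631, and without day 0 replicate 1 it was −1.01 with an adjusted p of 1.95e-06. The steps were −0.47 (SE 0.24, adjusted p = 0.101) and −0.14 (SE 0.24, adjusted p = 0.690, edgeR). Between the day 0 libraries, Mpg differed 1.93-fold, and 80 of 8215 genes with at least 10 CPM differed by as much. The 3′ ends of Mpg and Nprl3 overlap on opposite strands by 647 bases, which is 37.2% of Mpg's exons and 22.0% of those of the Nprl3 transcript used. Whether the counting used strand is not given in the sources used here, and reads of the shared stretch could count for either gene or for both.

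Snrnp25 encodes a protein of the U11/U12 particle, which recognises the rare minor introns. It had 87.5 and 94.9 CPM at day 0, 79.8 and 86.2 CPM at day 2 and 98.8 and 108 CPM at day 4. The days did not overlap, with day 2 lowest. Its change was −0.14 in the first step (SE 0.11, adjusted p = 0.279, edgeR), 0.32 in the second (SE 0.11, adjusted p = 0.0429) and 0.18 over both (SE 0.11, adjusted p = 0.148). The rise in the second step was lost with total counts, where it was 0.23 (adjusted p = 0.121), and on leaving out any 1 library of day 2 or day 4, with values from 0.25 to 0.37. With total counts the change from day 0 to day 4 was called instead, at 0.29 (adjusted p = 0.0264).

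Polr3k encodes a small subunit of RNA polymerase III, which makes transfer RNAs and 5S ribosomal RNA. It had 30.3 and 34.1 CPM at day 0, 35.0 and 33.5 CPM at day 2 and 32.8 and 33.7 CPM at day 4, and all days overlapped. Its log2 fold changes were 0.091 (SE 0.11, adjusted p = 0.506, edgeR), −0.043 (SE 0.11, adjusted p = 0.803) and 0.048 (SE 0.11, adjusted p = 0.716) for the first step, the second and the whole course. With total counts the first step was called, at 0.29 (adjusted p = 0.0446).

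The steps themselves were compared by testing the change from day 2 to day 4 against that from day 0 to day 2. On the log2 scale 5 of the 9 genes rose by less in the second step and none by more, beside 16.9% called lower and 13.1% called higher among all tested genes (3719 calls, of which 1628 were higher and 2091 lower, and 868 and 3518 with total counts). The difference was −2.96 for Hba-x (SE 0.48, adjusted p = 0.00162, edgeR) and −2.24 for Hba-a1 (SE 0.27, adjusted p = 0.000307). It was −1.78 for both Hbq1a (SE 0.35, adjusted p = 0.00416) and Hbq1b (SE 0.26, adjusted p = 0.000853). For Rhbdf1 it was −0.89 (SE 0.27, adjusted p = 0.0312), a call that was lost without day 2 replicate 1, day 2 replicate 2 or day 4 replicate 1, with adjusted p-values of 0.143, 0.248 and 0.0951. The call for Hbq1a was lost without day 2 replicate 2 (adjusted p = 0.0766). Nprl3, at −0.78 (SE 0.28), missed the threshold with an adjusted p of 0.0547 in edgeR. With total counts Nprl3 was called lower, at −1.06 (adjusted p = 0.0144, edgeR). In CPM rather than on the log2 scale, Hba-a1 gained more in the second step, from a mean of 2512 ± 362 at day 2 to 10628 ± 1179 at day 4 (SD, n = 2), than in the first, from 125 ± 3.59.

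**Figure D2:**
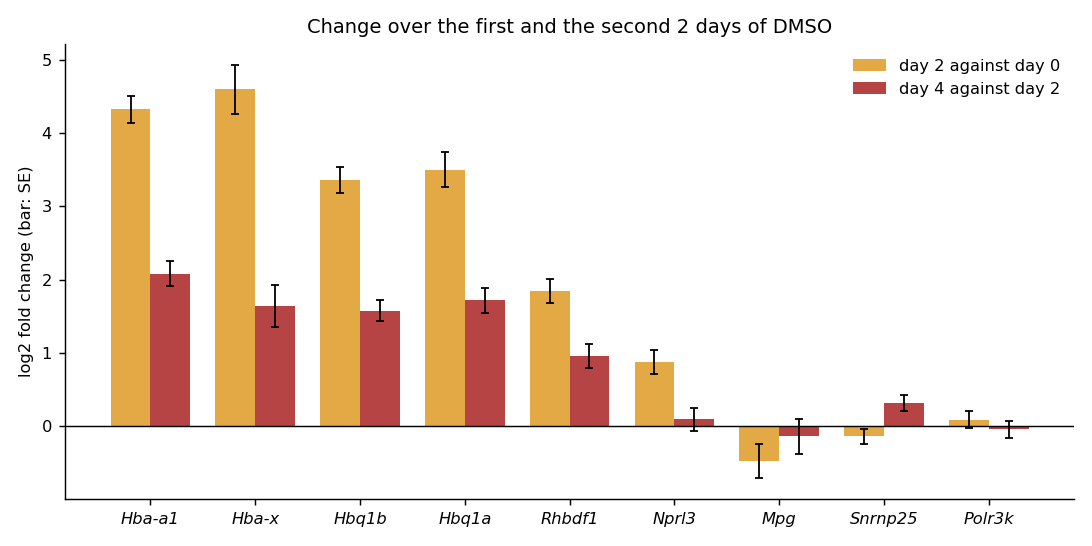
Log2 fold change of each gene from day 0 to day 2 and from day 2 to day 4, with the SE of the edgeR fit as error bars. In the globin genes and Rhbdf1 the first bar is the taller one, from 1.85 for Rhbdf1 to 4.60 for Hba-x against 0.96 to 2.08 for the second, and the bars of Polr3k lie within 0.1 of zero.

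Levels of different genes were compared as CPM per kilobase of transcript. At day 0 the order was Hba-a1 (224 ± 6.41, SD, n = 2), Snrnp25 (110 ± 6.27), Mpg (23.7 ± 10.6), Polr3k (11 ± 0.918), Hba-x (7.41 ± 0.276), Rhbdf1 (5.05 ± 1.24), Nprl3 (3.0 ± 0.585), Hbq1b (1.99 ± 0.0381) and Hbq1a (0.621 ± 0.0177), and no neighbours in this order overlapped. Hba-a1 was the highest of the 9 in these counts before any DMSO, while the other globins were below Polr3k. Counts of Hba-a1 and Hba-a2 lay within 27 reads of each other in every library, as counting shared reads at both genes would give. The level of Hba-a1 alone is then lower, and its place above Snrnp25 at day 0 is uncertain. By day 2 Hba-x had moved to the second place with 180 ± 37.4 CPM per kilobase, and Hbq1b, Rhbdf1 and Mpg overlapped in pairs at 20.5 ± 2.74, 18.2 ± 1.22 and 17.1 ± 1.20. At day 4 Hba-a1 stood at 19012 ± 2109 CPM per kilobase, Hba-x at 559 ± 297, Snrnp25 at 124 ± 7.60 and Hbq1b at 61.2 ± 8.03. Rhbdf1 (35.4 ± 5.30), Hbq1a (23.4 ± 2.47), Mpg (15.5 ± 1.86), Polr3k (11.4 ± 0.227) and Nprl3 (5.87 ± 0.710) followed without overlap between neighbours. Nprl3, whose introns hold the enhancers of the cluster, was thus the lowest of the 9 at day 4.

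The composition of the alpha-like transcripts was described by ratios within each library, with no test. An exact two-sided permutation test of 2 against 2 libraries cannot give a p below 0.333, and no model was fitted to the ratios. Per kilobase, Hba-x amounted to 3.16% and 3.47% of Hba-a1 at day 0, 3.79% and 4.16% at day 2, and 1.99% and 3.75% at day 4. The day 4 libraries differed too widely to place that day above or below the others. The sum of Hbq1a and Hbq1b was 1.13% and 1.21% of Hba-a1 at day 0, 0.615% and 0.612% at day 2, and 0.440% and 0.449% at day 4, with no overlap between days. Counts of Hbq1a were 0.250 and 0.253 of those of Hbq1b at day 0, 0.272 and 0.284 at day 2 and 0.314 and 0.303 at day 4. This ratio was higher on each later day, within the limit set by the sequence that both genes share.

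The beta-globin locus gave the partner chains. Its adult genes Hbb-bs and Hbb-bt rose by 6.91 (SE 0.27, adjusted p = 1.24e-08, edgeR) and 6.77 (SE 0.25, adjusted p = 9.69e-09) on the log2 scale over 4 days. Hbb-bs had 52.1 and 31.5 CPM at day 0, 808 and 1002 CPM at day 2 and 4970 and 5102 CPM at day 4. The first step was 4.44 for Hbb-bs and 4.27 for Hbb-bt, and the second 2.48 and 2.50. Hbb-b1 and Hbb-b2, which the annotation lists as separate genes, carried the counts of Hbb-bs and Hbb-bt to within 1 read. The 4 calls among 7 listed beta-globin genes thus stand for at most 2 measurements. Hbb-bs and Hbb-bt share 400 of their 31-base words, which is 66.9% of Hbb-bs's and 59.4% of Hbb-bt's. Reads may have been exchanged between them or counted at both, so their separate levels are uncertain. The embryonic Hbb-y, Hbb-bh1 and Hbb-bh2 had only 12, 28 and 7 counts in all 6 libraries and were not tested, while the embryonic alpha-like gene Hba-x had 38788.

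Hba-a1 per kilobase relative to the sum of Hbb-bs and Hbb-bt was 1.50 and 2.34 at day 0, 1.79 and 1.77 at day 2, and 1.25 and 1.43 at day 4. The means were 1.92 ± 0.591, 1.78 ± 0.0166 and 1.34 ± 0.126 (SD, n = 2). Both day 4 libraries lay below those of day 0 and day 2, and the day 0 libraries lay on either side of those of day 2. The absolute value depends on whether reads common to Hba-a1 and Hba-a2 were counted once or at both genes. Their counts lay within 27 reads of each other in every library, as counting at both genes would give. The value also depends on how reads common to Hbb-bs and Hbb-bt were counted. The handling of shared reads is not given in the sources used here.

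**Figure D3:**
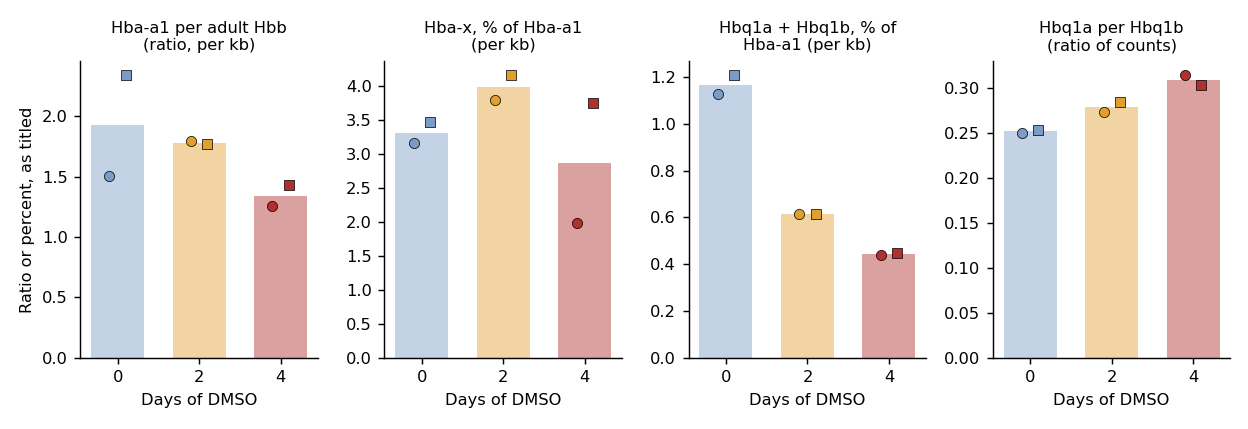
Ratios between globin transcripts in each library against days of DMSO, with points for the libraries (circle replicate 1, square replicate 2) and bars for the day means. The mean Hbq1 share of Hba-a1 was 1.17% at day 0 and 0.445% at day 4, the Hba-a1 to adult Hbb ratio was lowest at day 4, and the Hba-x share was 1.99% in 1 day 4 library and 3.75% in the other.

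Around the locus, 16 other genes with a start within 1 Mb of that of Hba-a1 were in the files, and 10 of them were tested. From day 0 to day 4, 2 rose and 5 fell (3 and 4 with total counts), with a median of −0.19, beside 35.5% higher and 36.4% lower among all tested genes. In the first step 2 rose and 3 fell (median −0.069), beside 31.0% higher and 31.5% lower among all tested genes. In the second 1 rose and 3 fell (median −0.22), beside 14.0% and 16.2%. Il9r, the interleukin 9 receptor gene, starts at −78.4 kb on the opposite strand, next to Snrnp25, and rose by 0.53 (SE 0.12, adjusted p = 0.00249, edgeR). Cpeb4, which encodes an RNA-binding protein that controls translation, lies at −414 kb and rose by 4.59 (SE 0.14, adjusted p = 6.88e-09), a change near that of Hbq1b. On the other side, Sh3pxd2b at 64.1 kb fell, with a log2 fold change of −0.38 (SE 0.11, adjusted p = 0.00922). Stk10 (−1.37), Efcab9 (−1.19), Npm1 (−1.88) and Stc2 (−2.43) fell too, and Bod1, Ubtd2 and Fbxw11 were not called. Within this window the genes that rose were thus interleaved with genes that did not, as Mpg and Snrnp25 lie on either side of Rhbdf1.

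**Figure D4:**
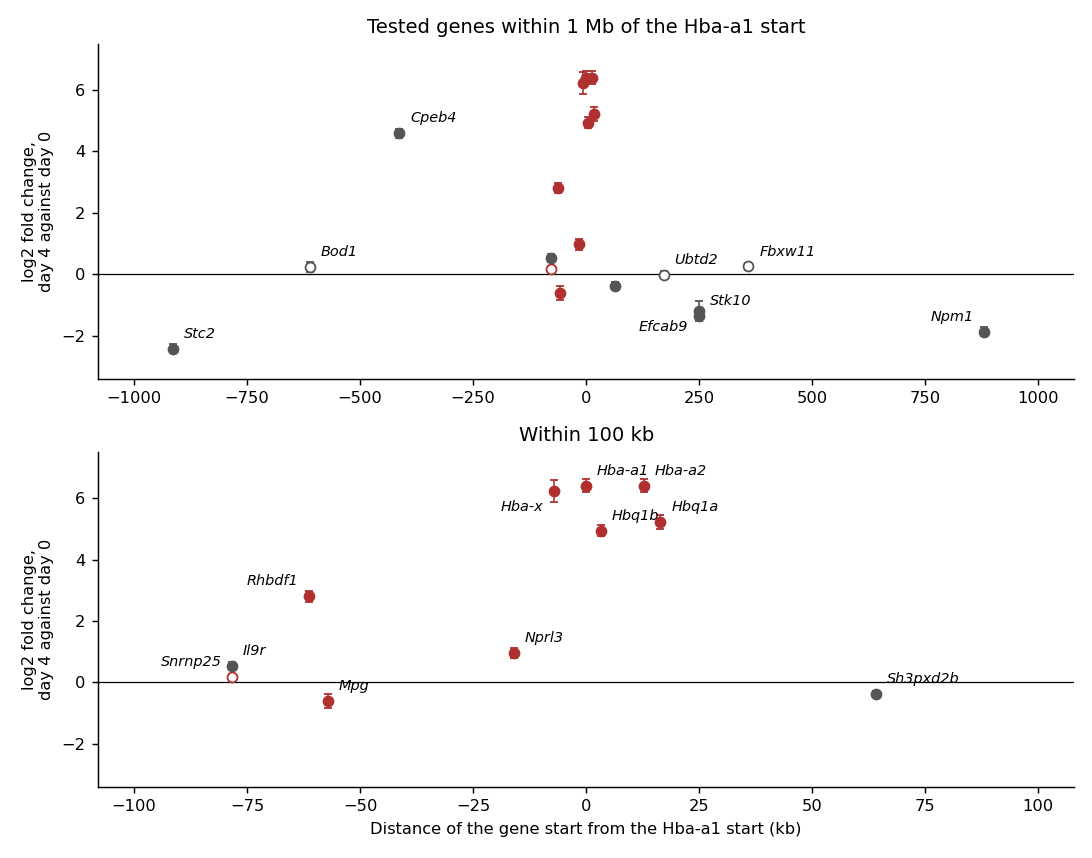
Log2 fold change from day 4 against day 0 (edgeR, bars SE) by distance of the gene start from that of Hba-a1 in kb, for the tested genes within 1 Mb (top) and those close to the cluster (bottom). Red marks the listed genes and Hba-a2, grey the other genes, and filled points an adjusted p below 0.05. The globin genes sit between 4.94 and 6.41, Rhbdf1 at 2.81, and Cpeb4 at 4.59 is the highest of the others.

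Factors that bind globin promoters and enhancers changed by far less than the globins. Of 17 listed, 9 rose and 6 fell by day 4, with a median of 0.37, beside 35.5% higher and 36.4% lower among all tested genes, whose median was −0.017. Tal1, part of the erythroid complex that binds GATA sites, rose by 1.92 (SE 0.14, adjusted p = 4.37e-07, edgeR), and Zfpm1, the GATA1 cofactor FOG1, by 1.41. The chromatin remodeller gene Atrx rose by 0.77. Lmo2, which bridges Tal1 and Ldb1, fell, with a log2 fold change of −1.41. In the first step 5 rose and 7 fell, a balance that turned to 10 and 3 with total counts. In the second 6 rose and 1 fell (5 and 2 with total counts). Among all tested genes 31.0% were higher and 31.5% lower in the first step, and 14.0% and 16.2% in the second.

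Of 7 listed genes of free alpha chain handling, protein quality control and heme sensing, 3 rose by day 4 and none fell, with a median of 0.24. The count of higher genes is near the 35.5% of all tested genes. Ulk1, the autophagy kinase that helps clear free alpha chains, rose by 1.97 (SE 0.12, adjusted p = 1.72e-07, edgeR). Eif2ak1, the heme-regulated kinase that restrains globin translation, rose by 1.33. Ube2o, the ubiquitin ligase that removes unassembled alpha chains, rose by 0.66. In the first step 2 rose and 1 fell, beside 31.0% higher and 31.5% lower among all tested genes. In the second 4 rose and none fell, beside 14.0% and 16.2%.

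The complexes in which the flanking genes work were read from the same fit, in which 35.5% of all tested genes were higher and 36.4% lower at day 4. For Nprl3, 16 genes of GATOR, KICSTOR and the amino acid sensors were tested, and 8 rose and 5 fell by day 4 (median 0.26). Its partners in GATOR1 were Nprl2, which rose by 0.66 (SE 0.17, adjusted p = 0.00393, edgeR), and Depdc5, at 0.071 (SE 0.11, adjusted p = 0.587). Depdc5 had risen by 0.49 (adjusted p = 0.00317) in the first step and fell in the second, with −0.42 (adjusted p = 0.0183). The sestrin gene Sesn3 rose most of the list, by 2.87, followed by Castor2 with 1.76 and Bmt2 with 1.27, while Sec13, which also serves in vesicle coats and nuclear pores, fell with −1.32.

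For Mpg, 19 of 20 listed base excision repair genes were tested, and 3 rose and 12 fell by day 4 (median −0.47), or 5 and 9 with total counts. The largest falls were those of Apex1, the endonuclease that acts after Mpg, with −2.29 (SE 0.18, adjusted p = 7.43e-07, edgeR), the DNA ligase gene Lig1 with −1.98, and the glycosylase genes Ung with −1.72 and Nthl1 with −1.54. For Polr3k, 17 genes of RNA polymerase III were tested, and 1 rose and 13 fell (median −0.69). Polr3gl, which encodes an alternative to the subunit made from Polr3g, rose by 1.48 (SE 0.19, adjusted p = 2.89e-05), and Polr2h, Polr2f and Polr1d, which encode subunits shared with other polymerases, fell with −1.65, −1.14 and −1.11. Polr3k itself, at 0.048, was not called.

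For Snrnp25, 8 genes of the U11/U12 particle were tested, with 2 higher and 2 lower at day 4 (median −0.061). Zrsr1, which acts in splice site recognition, rose by 1.98 (SE 0.12, adjusted p = 1.42e-07, edgeR) and Rnpc3 by 1.00, while Snrnp35 (−1.19) and Zmat5 (−0.53) fell. For Rhbdf1, 10 of 14 listed genes of the rhomboid family and of ADAM17 and its substrates were tested, with 4 higher and 3 lower (median 0.027). Rhbdl1, a rhomboid protease gene, rose by 2.40 (SE 0.17, adjusted p = 4.20e-07, edgeR) and Rhbdd1 by 1.29. The mitochondrial rhomboid gene Parl fell with −1.69, and Tnf, whose product ADAM17 releases, fell from a mean of 1.38 CPM to 0.111 CPM. The paralog Rhbdf2 changed by 0.36 (adjusted p = 0.0405) and Adam17 by −0.14 (adjusted p = 0.308).

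**Figure D5:**
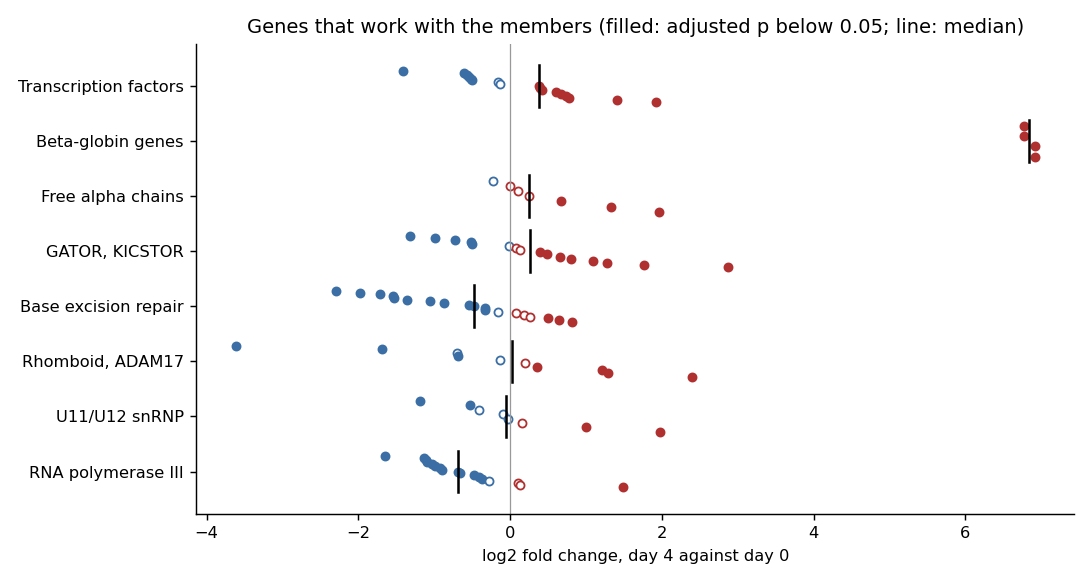
Log2 fold change from day 4 against day 0 of the genes in each list, with 1 point per gene, filled where the adjusted p in edgeR was below 0.05, and a line at the median of the list. The beta-globin genes stand at 6.77 and 6.91, and the medians of the other lists lie between −0.69 and 0.37.

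The genes whose course over the 6 libraries was closest to that of Hba-a1 were sought by the distance between mean-centred log2 CPM values among 12372 tested genes outside the globins. The closest 5 were Matk (distance 0.72 log2 units), Asic4 (0.81), Siglec1 (0.85), Retn (0.89) and Cgn (1.00), against 0.65 for Hbb-bt, 0.75 for Hbb-bs, 0.85 for Hba-x, 1.38 for Hbq1a and 1.54 for Hbq1b. Matk, which encodes a tyrosine kinase of blood cells, had 0.294 and 0.222 CPM at day 0, 5.89 and 7.29 CPM at day 2 and 17.5 and 18.2 CPM at day 4. Cgn, which encodes the tight junction protein cingulin, had 2.43 and 3.41 CPM at day 0 and 106 and 188 CPM at day 4. The other 3 were below 0.45 CPM at day 0 and reached 21.9 and 27.1 CPM (Asic4), 5.79 and 10.8 CPM (Siglec1) and 6.10 and 8.91 CPM (Retn) at day 4.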

How the data were processed

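The authors made stranded, poly(A)-selected mRNA libraries and deposited 1 file per library of raw read counts per RefSeq transcript (mm10), neither normalized nor pooled. The submitters' processing notes name cutadapt, TopHat, HTSeq and DESeq2, and the annotation release and the use of strand in counting are not given in the sources used here. No read was listed as ambiguous or as aligned to several places. Reads assigned to no feature were left out. They made up 50.5% to 58.4% of the sum of these reads and all counts on transcripts. This is not a share of reads, because a read could be counted at several transcripts, as at those of Nprl3. Symbols were taken from a RefSeq table (GRCm38.p6) for 32199 of 32654 transcripts and from GENCODE for 187.

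Counts were tested with edgeR 4.0.16 (R 4.3.3), with TMM factors (0.921 to 1.07), filterByExpr by day (18351 transcripts kept) and a single quasi-likelihood model of all 6 libraries. p-values were adjusted by Benjamini-Hochberg over all kept transcripts, and SEs were computed from the F statistic. CPM used TMM-scaled library sizes. Transcript lengths came from GENCODE exons, with RefSeq gene ends where the RefSeq table had 1 transcript for the gene. For Nprl3 and Rhbdf1 the GENCODE lengths were used unchanged. Distances for the search of similar genes used log2 CPM with a prior count of 2. On simulated counts with 200 of 18351 transcripts changed, in equal numbers up and down, the day 4 against day 0 test recovered 94.7% of changes of 1 on the log2 scale. It called 0.0605% of unchanged ones. In the real counts 8894 of 12381 genes were called in this comparison, so the simulated rates need not hold for them. The p-values rest on the spread between libraries of the same day, pooled over the 3 days and with information shared across transcripts. Alternatives were DESeq2 1.42.0, other scalings and filters, a replicate block, 1 transcript per gene, any transcript of a gene, a size limit and leaving out each library.

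The genes and lists were chosen with earlier results of these data known. All listed genes with counts are named, and from each list at most 4 called genes with the largest change from day 0 to day 4, with Nprl2 and Depdc5. Rhbdf2, Adam17 and the genes far apart at day 4 were added after their values were seen. 1 erythroid marker is not reported here.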

Additional observations from a re-analysis of the deposited data

How the results depend on the processing

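Of 495 alternative values of the log2 fold changes of the 9 genes, 463 kept their direction and side of the threshold, 17 lost a call, 9 gained one and 6 turned in sign, all 6 of them values that were not called. Snrnp25 turned to 0.062 from day 0 to day 2 with total counts. With 1 library left out, Mpg ranged from −0.87 to 0.071 from day 0 to day 2 and from −0.21 to 0.73 between the steps, and turned in both without day 0 replicate 2. Nprl3 ranged from −0.035 to 0.21 from day 2 to day 4 and turned without day 2 replicate 1 (−0.011) or day 4 replicate 1. Polr3k ranged from −0.040 to 0.12 from day 0 to day 4 and turned without day 0 replicate 1. The fall of Mpg over 4 days was also lost with DESeq2 (−0.63, adjusted p = 0.147), total counts (−0.49, adjusted p = 0.0668) and the 2 days fitted alone (−0.61, adjusted p = 0.0647), and over all alternatives its adjusted p ranged from 1.95e-06 to 0.631. The cause was not tested.

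Leaving out 1 library gave 6 to 7 calls from day 0 to day 2, 4 to 6 from day 2 to day 4, 6 to 7 from day 0 to day 4 and 3 to 8 between the steps. The 8 came without day 0 replicate 1, when Mpg and Snrnp25 were called higher, and the 3 without day 2 replicate 2. Under the other settings no count of calls over the 9 genes moved by more than 1.5 times. With total counts, the only setting tried for the lists, neither did any list's calls in the first step, the second or the whole course, but the split of the 17 globin regulators in the first step turned from 5 higher and 7 lower to 10 and 3.

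The Hba-a1 to adult Hbb ratio was 1.57 at day 2 and 1.18 at day 4 from raw counts, and 1.48 and 1.11 with GENCODE lengths, an alternative added after seeing the data. With 1 library left out, the ratio is that of the other library of the day, so this was no further check. The values were 1.50 and 2.34 at day 0, 1.77 and 1.79 at day 2, and 1.25 and 1.43 at day 4.

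Same-numbered libraries did not deviate together (correlations of 0.032, 0.045 and 0.079 across transcripts), so the numbers were not taken as a pairing. A replicate block changed no call of the 9 genes, with 6, 6, 7 and 5 calls, and gave 7697, 3689 and 8874 calls over all genes for the first step, the second and the whole course. The 2 libraries per day and counts of 15 to 19 at day 0 for Hbq1a limit the precision of its fold changes.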
